A study of Brachypodium distachyon with 6 samples.

Results

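Nitrate reductase is the enzyme that reduces nitrate to nitrite in the cytosol, with NADH or NADPH as electron donor and flavin, haem and a molybdenum cofactor as its redox centres. It catalyses the first step of nitrate assimilation. Nitrite is then reduced to ammonium in plastids by nitrite reductase, and ammonium is built into glutamine, so a plant fed ammonium takes up nitrogen past the step that this enzyme carries out. In plants in general, nitrate reductase genes are known for transcription that is induced by nitrate. The 2 nitrate reductase genes examined here are those at the loci BRADI_3g37940v3 and BRADI_3g57680v3, chosen by their locus identifiers out of 29627 features in the deposited table. Both were among the 23694 features that had enough counts to be tested. The table gives no gene names or sequences, so the identity of the loci was taken as given, and whether either encodes an NADH-specific or an NAD(P)H-using form was not determined here.

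The samples were whole roots of the grass Brachypodium distachyon, all of the inbred line Bd21 from which the species' reference genome was made. Seedlings aged 7 days were moved to hydroponic tanks of 4.5 L and grown for 19 days on 2.5 mM nitrogen. The ammonium group (3 libraries) received 1.25 mM (NH4)2SO4 and the nitrate group (3 libraries) 1.25 mM Ca(NO3)2, so that sulfate and calcium changed together with the nitrogen source. Each library was made from polyadenylated RNA of a pool of 12 seedlings. The comparison asks how the form of nitrogen affects transcript levels in the root. No group without nitrogen, or with both forms, was analysed here, so a gain on nitrate and a loss on ammonium cannot be told apart. The libraries held 22470936 to 29547877 counts. On a principal component analysis of log2 CPM (counts per 1000000 counts of the library), the first component (79.0% of the variance) separated the nitrogen sources. Ammonium libraries lay at 49.1 to 72.8 on it and nitrate libraries at -64.7 to -60.7. The second component (7.22% of the variance) placed ammonium replicate 3 and nitrate replicate 3, at -29.7 and -24.3, apart from the other libraries, at 10.9 to 17.4. The labels do not say whether pools of a group came from separate tanks, so the p-values rest on differences among pools that may in part be technical. Because whole roots were used, fewer cells of a type that expresses a gene and less RNA per cell cannot be told apart.

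Both nitrate reductase genes were abundant in nitrate roots and lower under ammonium, BRADI_3g37940v3 at 12.6% and BRADI_3g57680v3 at 5.73% of the mean nitrate level. Below, a fall means a lower level under ammonium than under nitrate, not a change over time. Levels are given as CPM with library sizes scaled by the TMM method (trimmed mean of M-values), which assumes that most features do not change. CPM takes no account of transcript length, so it compares libraries for a given gene and does not rank the 2 genes by level.

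BRADI_3g37940v3 had 87.7, 96.1 and 84.0 CPM in ammonium replicates 1 to 3 (2602, 2679 and 2324 counts), against 794, 688 and 651 CPM in nitrate replicates 1 to 3 (22710, 17854 and 14793 counts). The 3 ammonium libraries lay close together and far below all 3 nitrate libraries, with the lowest nitrate value 6.77 times the highest ammonium value. The mean was 89.3 ± 6.23 CPM under ammonium and 711 ± 74.2 CPM under nitrate (SD, n = 3 each). The log2 fold change of BRADI_3g37940v3, ammonium over nitrate, was -2.99 (SE 0.11, 95% interval -3.24 to -2.74; edgeR adjusted p = 2.1e-06 by its quasi-likelihood test, with Benjamini-Hochberg adjustment over all tested features). The fall was 7.96-fold, with a 95% interval of 6.70 to 9.46.

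BRADI_3g57680v3 had 33.8, 35.4 and 30.5 CPM in ammonium replicates 1 to 3 (1002, 986 and 845 counts), against 717, 625 and 399 CPM in nitrate replicates 1 to 3 (20515, 16219 and 9066 counts). The ammonium libraries were again close to each other, while nitrate replicate 3 stood well below the other nitrate libraries. The groups did not overlap, and the lowest nitrate value was 11.3 times the highest ammonium value. The mean was 33.2 ± 2.47 CPM under ammonium and 580.2 ± 164 CPM under nitrate (SD, n = 3 each). The log2 fold change of BRADI_3g57680v3 was -4.13 (SE 0.21, 95% interval -4.61 to -3.64; edgeR adjusted p = 7.2e-06). The fall was 17.5-fold, with a 95% interval of 12.4 to 24.5. The fit takes a single dispersion for both groups, although SD over mean was 7.44% under ammonium and 28.2% under nitrate. Leaving out nitrate replicate 3 gave a log2 fold change of -4.34, and leaving out both libraries numbered 3 gave -4.26.

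**Figure D1:**
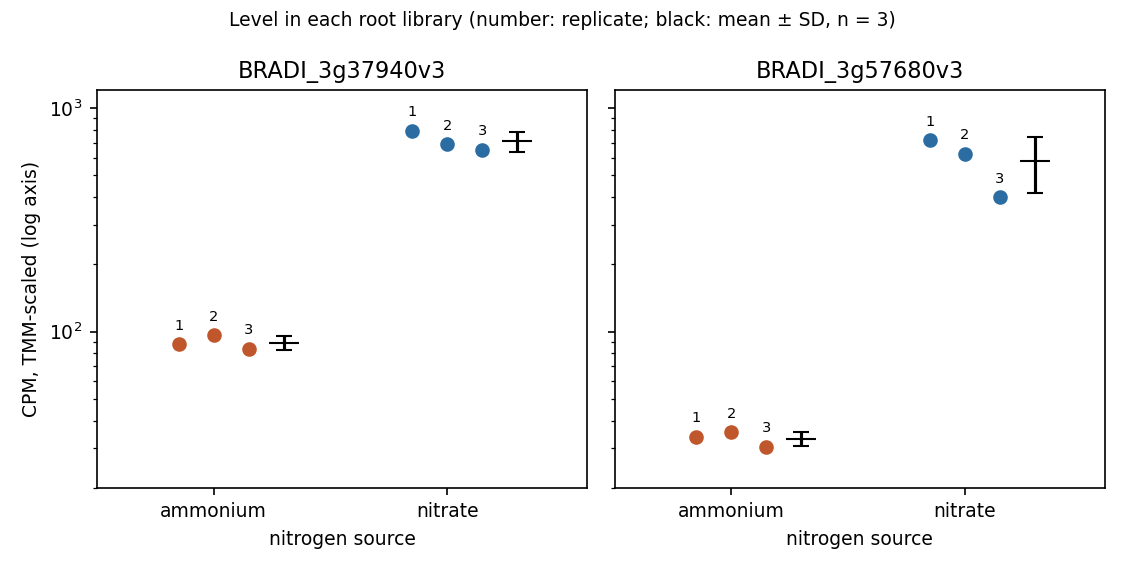
Level of each nitrate reductase gene in CPM (log axis) in the 3 ammonium and 3 nitrate root libraries; points are libraries with their replicate number, and the black mark is the mean ± SD (n = 3). The ammonium points of BRADI_3g37940v3 lie at 84.0 to 96.1 CPM against 651 to 794 CPM under nitrate, and those of BRADI_3g57680v3 at 30.5 to 35.4 CPM against 399 to 717 CPM.

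Both genes (2 of 2) passed the threshold of an adjusted p under 0.05 and were lower under ammonium. Over all tested features, 41.4% passed it in either direction and 22.2% passed it as lower under ammonium. All ammonium libraries were below all nitrate libraries for 27.8% of the tested features. A change in this direction was therefore common in these roots. Falls of at least 4-fold that passed the threshold made up 1.72% of tested features, and both nitrate reductase genes were among them. The median log2 fold change over all tested features was 0.00, with a median SE of 0.13.

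By CPM, which is not corrected for transcript length, both genes ranked near the top of the tested features under nitrate and lower under ammonium. By mean CPM under ammonium, BRADI_3g37940v3 ranked 2471 and BRADI_3g57680v3 ranked 6915 of 23694 tested features, where 89.6% and 70.8% of features lay below them. By mean CPM under nitrate they ranked 99 and 132, with 99.6% and 99.4% of features below. Neither gene was silent in ammonium roots. The lowest library value was the 845 counts of BRADI_3g57680v3 in ammonium replicate 3, or 30.5 CPM with an exact 95% Poisson interval of 28.5 to 32.7 CPM, which covers counting error only.

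Few features as abundant as the nitrate reductase genes in nitrate roots fell as far. Of 2229 tested features whose nitrate mean was 100 CPM or more, 13 had a lower log2 fold change than BRADI_3g37940v3, with BRADI_3g57680v3 among them, and 4 had a lower one than BRADI_3g57680v3. Among the 139 features outside the pair whose nitrate mean was within 1.5 times that of BRADI_3g37940v3, 0 had a lower log2 fold change than this gene. Their median was -0.36, with 78 lower and 12 higher past the edgeR threshold. The same held for BRADI_3g57680v3, with 0 of 202 such features below it, a median of -0.32, and 110 lower and 16 higher. Sets chosen by nitrate level, which itself enters the fold change, can lean towards lower values under ammonium. How far they did was not tested. Features with larger falls than BRADI_3g37940v3 numbered 124 over the whole tested set, and 41 fell further than BRADI_3g57680v3. These ranks describe the libraries and were not tested.

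**Figure D2:**
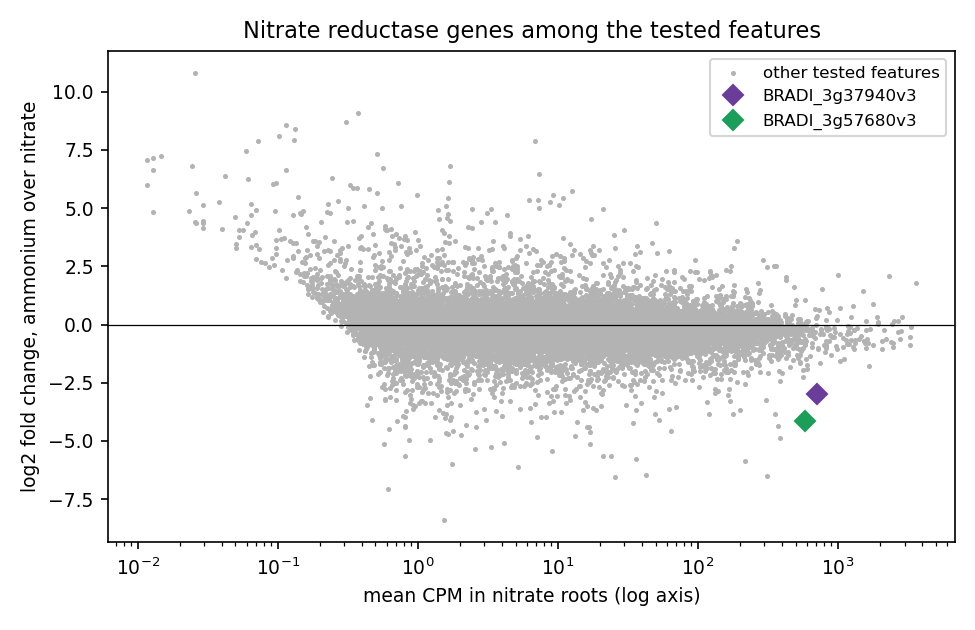
Log2 fold change, ammonium over nitrate, against mean CPM in nitrate roots (log axis) for tested features; grey points are other features and diamonds the nitrate reductase genes (7 features with at most 0.01 CPM under nitrate are not drawn). The diamonds lie at -2.99 and -4.13, below the grey points of similar nitrate level.

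The summed nitrate reductase transcripts had 122, 132 and 114 CPM in ammonium replicates 1 to 3, against 1510.5, 1313 and 1049 CPM in nitrate replicates 1 to 3. The mean sum was 123 ± 8.55 CPM under ammonium and 1291 ± 231 CPM under nitrate (SD, n = 3 each). The ammonium sum was 9.49% of the nitrate sum, and the groups did not overlap. An exact permutation test over libraries (two-sided) gave p = 0.1 for the sum, the smallest value that 3 libraries against 3 can give. As a part of all counts, the pair took 0.0123% ± 0.000853 of an ammonium library and 0.128% ± 0.0212 of a nitrate library (SD, n = 3 each). The log2 fold change of the sum was -3.40 (SE 0.15).

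In all 3 ammonium libraries BRADI_3g37940v3 made up a larger part of the pair's counts than in any nitrate library. The ratio of their counts within a library does not depend on library scaling, and transcript length cancels when the ratio is compared between groups. BRADI_3g37940v3 had 2.60, 2.72 and 2.75 counts for each count of BRADI_3g57680v3 in ammonium replicates 1 to 3, against 1.11, 1.10 and 1.63 in nitrate replicates 1 to 3. The ammonium ratios were nearly equal and all higher than the nitrate ratios, of which replicate 3 lay nearest to them. The mean log2 ratio was 1.43 ± 0.04 under ammonium and 0.33 ± 0.33 under nitrate (mean ± SD over 3 libraries each). For the difference of 1.10 on the log2 scale, a factor of 2.14, the exact permutation test (two-sided) gave p = 0.1, which is the floor of the test and does not pass 0.05. Without nitrate replicate 3 the difference was 1.28.

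On the scale of shares, BRADI_3g57680v3 held 27.8%, 26.9% and 26.7% of the pair's counts in ammonium replicates 1 to 3, against 47.5%, 47.6% and 38.0% in nitrate replicates 1 to 3. The share thus varied little between ammonium pools and more between nitrate pools, where replicate 3 was the low one. Its mean was 27.1% ± 0.60 under ammonium and 44.4% ± 5.50 under nitrate (mean ± SD over 3 libraries each; two-sided exact permutation p = 0.1). The exact 95% binomial intervals, which cover counting error only and not the spread between pools, were 37.4% to 38.6% for nitrate replicate 3, 47.0% to 47.9% for replicate 1 and 47.1% to 48.1% for replicate 2.

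**Figure D3:**
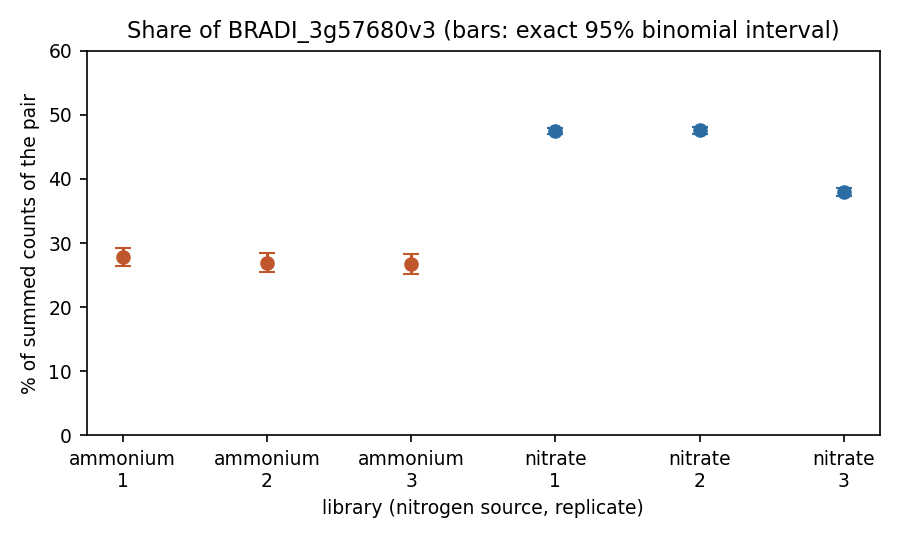
Share of BRADI_3g57680v3 in the summed counts of both nitrate reductase genes (%, axis from 0) in each library; bars are exact 95% binomial intervals, which cover counting error only. The ammonium libraries lie at 26.7% to 27.8%, nitrate replicates 1 and 2 at 47.5% and 47.6%, and nitrate replicate 3 at 38.0%.

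Among the nitrate pools the 2 genes varied unequally, which rests on replicate 3 and was not tested. In nitrate replicates 1 and 2 the ratio of their counts was nearly the same, 1.11 and 1.10. The coefficient of variation (SD over mean) of BRADI_3g37940v3 was 6.98% under ammonium and 10.4% under nitrate, and that of BRADI_3g57680v3 was 7.44% under ammonium and 28.2% under nitrate. Counting error alone gives 0.845% for BRADI_3g57680v3 under nitrate. Among the 202 other features of similar nitrate level, the median coefficient of variation was 7.92% (interquartile range 4.99% to 12.0%), and 99.5% of them had a lower value than BRADI_3g57680v3. For BRADI_3g37940v3 under nitrate, 70.5% of its 139 similar features had a lower value.

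The low value among the nitrate pools was that of replicate 3. There BRADI_3g57680v3 deviated by -0.75 on the log2 CPM scale from the mean of the other nitrate libraries, and 2.80% of all tested features deviated further down in that library. Among the features with at least 100 CPM under nitrate the portion was 0.538%. BRADI_3g37940v3 deviated by -0.18 in the same library, where 26.4% of tested features lay lower. This library also had the fewest counts, 22470936, and stood apart on the second principal component, as given above. The part that these played in the low value was not tested. In ammonium replicate 3, the other library apart on that component, BRADI_3g57680v3 deviated by -0.18 and BRADI_3g37940v3 by -0.13 from the mean of the other ammonium libraries. Deviations of this size were common in that library, where 22.1% of tested features lay lower than BRADI_3g57680v3 and 27.8% lower than BRADI_3g37940v3. On the first principal component this library lay nearest to the nitrate libraries of the ammonium group (49.1, against 68.1 and 72.8 for replicates 2 and 1), whereas its values of both nitrate reductase genes were the lowest of the group and so the farthest from nitrate.

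**Figure D4:**
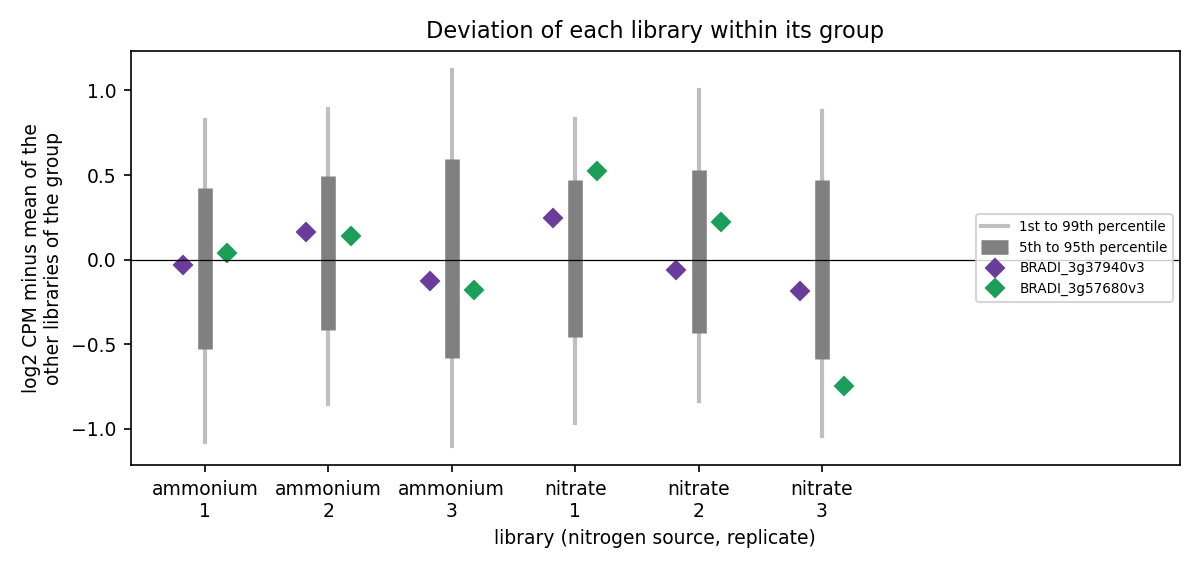
Log2 CPM of each library minus the mean of the other libraries of its group; grey bars span the 5th to 95th (thick) and 1st to 99th (thin) percentiles of all tested features, and diamonds are the nitrate reductase genes. BRADI_3g57680v3 lies at -0.75 in nitrate replicate 3, below the thick bar, and at 0.52 in nitrate replicate 1, above it, where the mean it is set against includes replicate 3; BRADI_3g37940v3 lies inside the thick bar in every library.

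No tested neighbour of either gene within 10 places in locus order had as low a log2 fold change as the gene itself. Such falls were rare among all tested features: 0.528% fell at least as far as BRADI_3g37940v3 and 0.177% at least as far as BRADI_3g57680v3. Their absence among so few neighbours was therefore likely beforehand and says little about the loci. Both identifiers carry the digit 3, read by the naming convention of this species as chromosome 3, and the loci lie 2245 places apart in the order of locus numbers among the features of the table. Around BRADI_3g37940v3, 16 of the 20 features within 10 places on either side were tested, of which 3 were lower, 3 higher and 10 not past the edgeR threshold. Their log2 fold changes ran from -1.16 to 1.93. Around BRADI_3g57680v3, 16 of 20 were tested, with 5 lower, 3 higher and 8 not past the threshold, and log2 fold changes from -1.06 to 2.06. The 6 of 16 and 8 of 16 neighbours past the threshold stand against 41.4% over all tested features. The nearest tested features next to BRADI_3g57680v3 had log2 fold changes of -0.44 before it and 0.65 after it (edgeR adjusted p = 0.0020 and 0.010). Those of BRADI_3g37940v3 had -0.0034 before it, 2 places away, and -0.16 after it (edgeR adjusted p = 0.98 and 0.25).

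**Figure D5:**
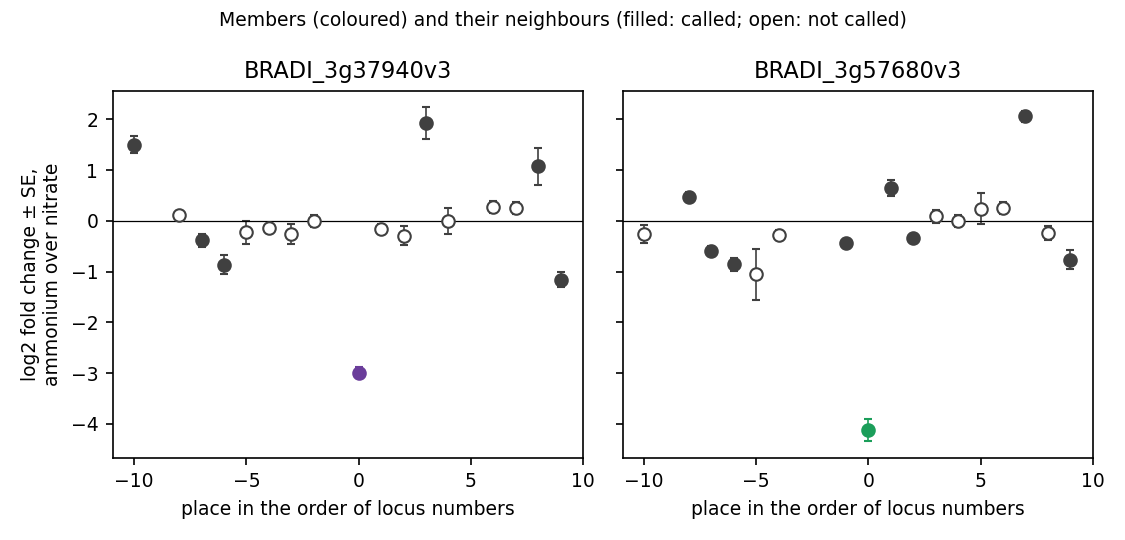
Log2 fold change ± SE, ammonium over nitrate, of each nitrate reductase gene (place 0, coloured) and the tested features within 10 places in the order of locus numbers; filled points passed the edgeR threshold and open points did not. The genes lie at -2.99 and -4.13, and their neighbours between -1.16 and 2.06.

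The features most like each gene across the 6 libraries, by Pearson's r of log2 CPM among 16402 features of at least 5 CPM on average, were not the other member of the pair. For BRADI_3g37940v3 it was BRADI_5g20760v3, with r = 0.999 and means of 58.5 ± 2.20 CPM under ammonium and 124 ± 2.49 CPM under nitrate (SD, n = 3 each). For BRADI_3g57680v3 it was BRADI_5g22600v3, with r = 0.999 and means of 4.06 ± 0.109 CPM under ammonium and 9.02 ± 0.789 CPM under nitrate (SD, n = 3 each). The log2 fold changes of these features were smaller in size, -1.08 and -1.15, since r reads the shape and not the size of a change. The r between the nitrate reductase genes was 0.997, exceeded by 42 features for BRADI_3g37940v3 and by 48 for BRADI_3g57680v3. The libraries form 2 groups that lie far apart, so r mostly reads the difference between the groups: 209 features had r over 0.99 with BRADI_3g37940v3 and 248 with BRADI_3g57680v3. These values are descriptions, with no test.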

How the data were processed

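The deposited file is a single table of whole-number read counts, unnormalized, with 1 column for each of the 6 root libraries. HISAT2 and HTSeq were used, per the submitters' processing notes; the versions, genome build, annotation, strand setting and handling of multi-mapped reads are not stated in the labels or the table, so reads shared between similar genes, the members of the pair included, or with overlapping genes cannot be separated. Per the labels' protocols, poly-T selected RNA was primed with random hexamers (NEBNext Ultra RNA kit).

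Counts were tested in edgeR 4.0.16 (R 4.3.3) with the quasi-likelihood test on all 6 libraries, nitrogen source as the only term, after filterByExpr (minimum count 10, minimum total 15) and TMM scaling. Fold changes are ammonium over nitrate, and an SE is the fold change on the log2 scale over the square root of F. Benjamini-Hochberg adjustment ran over 23694 features. The sum of the pair was fitted as an added feature. Log2 CPM for components and likeness used a prior count of 2. Permutation tests were exact (SciPy 1.17.1). DESeq2 1.42.0 and limma 3.58.1 were alternatives.

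Libraries of a group differed by more than counting noise (chi-square per degree of freedom at least 6.86), so all were kept. Across features, deviations from group means correlated at 0.11 to 0.21 between libraries of the same replicate number. Between libraries of different replicate number the values were -0.13 to -0.02. The deviations cancel within a group, so these values are not independent, and they were not tested. The labels state no pairing by replicate number. The reported fit and tests take no account of it; a blocked fit was among the alternatives. The genes, lists and tests were chosen with earlier results of these data known. By rule the named features are both genes and, for each, the feature most like it. Of 29627 identifiers, 0 could be found in the RefSeq gene table of assembly Brachypodium_distachyon_v3.0, which holds 31335 genes and no product names, so the 13 lists of nitrogen assimilation genes, their partners and shoot markers were not applied (0 of 13), and the labelled tissue was not checked against markers.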

Additional observations from a re-analysis of the deposited data

How the results depend on the processing

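Every alternative left both nitrate reductase genes lower under ammonium and past the threshold (14 of 14 for each gene), with an adjusted p of at most 4.0e-05 for BRADI_3g37940v3 and 0.00012 for BRADI_3g57680v3. Leaving out 1 library at a time gave log2 fold changes of -3.06 to -2.91 for BRADI_3g37940v3, -4.34 to -3.95 for BRADI_3g57680v3 and -3.53 to -3.27 for their sum. The other scalings, filters and tools gave -2.99 to -2.98 for BRADI_3g37940v3 and -4.26 to -4.08 for BRADI_3g57680v3, where -4.26 is the fit without both libraries numbered 3, which was chosen after seeing the data. With the replicate number as a block the values were -2.99, -4.09 and, for the sum, -3.38, and the block changed no call of either gene; it called 10526 features in all, against 9800 without it. The number of features called ranged from 7103 (without ammonium replicate 1) to 10926 (without both libraries numbered 3). The difference between the groups in the log2 ratio of the genes' counts was 1.0 to 1.28 when 1 library was left out, and 1.27 without both libraries numbered 3. Taken within replicate numbers, as pairs, it was 1.10 (exact permutation test over 3 pairs, two-sided p = 0.25, the smallest value that 3 pairs can give). The corresponding difference in the share of BRADI_3g57680v3, ammonium minus nitrate, was -20.4 to -15.6 percentage points. With 845 or more counts in every library, depth limited these values little: counting error was at most 3.26% as a group mean, below the spread between pools.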
